A study of Mus musculus with 4 samples.

Results

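The 5 genes described here encode the mouse receptors for the Fc portion of IgG and the signalling chain they share: Fcgr1 (FcγRI), Fcgr3 (FcγRIII), Fcgr4 (FcγRIV), Fcgr2b (FcγRIIb) and Fcer1g (the common gamma chain). They were chosen by gene symbol and not by a rule on any measured value, though with earlier results of these data known. Each symbol matched 1 of the 54532 genes of the count table. RNA was sequenced from bone marrow neutrophils of mice labelled as wild type. There were 2 libraries from cells given Aβ40, the 40-residue form of amyloid-β, at 20 µg/ml for 4 h, and 2 libraries from cells given DMSO, the vehicle. The dose and the time come from the series' design text, which gives neither for DMSO. No source used here gives the age or number of the mice, how the neutrophils were separated, or whether 1 mouse or several supplied the libraries of a group. A p-value here therefore reflects only how these libraries vary, and that variation may be technical.

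IgG Fc receptors bind antibody-coated particles and immune complexes. In the mouse, FcγRI, FcγRIII and FcγRIV are activating: each is paired with a dimer of the gamma chain, whose ITAM motifs are phosphorylated by Src family kinases and then recruit the kinase Syk, which leads to phagocytosis, the oxidative burst and degranulation. FcγRIIb is the single inhibitory receptor of the family, and its cytoplasmic ITIM motif recruits the lipid phosphatase SHIP1, the product of Inpp5d. The balance of the activating and inhibitory receptors sets how readily a neutrophil answers an immune complex.

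Fcgr2b, Fcgr4, Fcgr3 and Fcer1g lie in that order within 275.7 kb of chromosome 1, and Fcgr1 lies on chromosome 3. In mm10 coordinates, Fcgr2b (ENSMUSG00000026656) spans 170958617 to 170976547 on the minus strand, Fcgr4 (ENSMUSG00000059089) 171018920 to 171029761 on the plus strand and Fcgr3 (ENSMUSG00000059498) 171051174 to 171064935 on the minus strand. Fcer1g (ENSMUSG00000058715) spans 171229572 to 171234365 on the minus strand of the same chromosome, and Fcgr1 (ENSMUSG00000015947) spans 96282909 to 96293969 on the minus strand of chromosome 3.

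Fcgr3 and Fcgr2b, an activating and an inhibitory receptor, are close relatives in sequence. Their longest coding sequences were 87.5% identical over 782 aligned bases, against 67.8% to 69.8% for the other pairs of IgG receptors. The longest stretch without a mismatch between the longest coding transcript of each gene was 129 bases, all of it coding. It is shown because a read inside it cannot be given to either gene by its sequence. On the minus strand of GRCm38, the assembly that mm10 names, it lies in Fcgr2b at chr1:170967980-170968081 (exon 3 of 8) and chr1:170966674-170966700 (exon 4), and in Fcgr3 at chr1:171057691-171057792 (exon 3 of 5) and chr1:171054167-171054193 (exon 4), by the GENCODE M21 transcripts:
Fcgr2b and Fcgr3, shared run: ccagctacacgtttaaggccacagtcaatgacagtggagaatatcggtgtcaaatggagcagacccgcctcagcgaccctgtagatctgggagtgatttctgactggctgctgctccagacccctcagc
Of all distinct 50-base runs in the transcripts of Fcgr3, 166 of 1733 (9.58%) also occur in Fcgr2b, which is 2.92% of the 5685 runs of Fcgr2b. At 100 bases 44 runs were shared, 2.54% of those of Fcgr3, and at 150 bases none was. Fcgr1, Fcgr4 and Fcer1g shared no 50-base run with any other gene, whereas 6.95% of the runs of Fcgr2b occurred in 146 other genes in all. The sources used here give neither the read length nor the handling of reads with several matches, so the split of counts between Fcgr3 and Fcgr2b is uncertain to that extent.

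The sequences just before the start sites of the 3 activating receptor genes are shown because a window of each holds the letters AGAGGAAG, here on the opposite strand as CTTCCTCT, which contain a core of the kind bound by PU.1, a transcription factor of myeloid cells. They are from RefSeq on GRCm38.p6, each 250 bases ending at the base before the annotated start, written in the direction of the gene. Capitals mark CTTCCTCT. Fcgr1 lies at chr3:96293970-96294219 (minus strand), Fcgr3 at chr1:171059395-171059644 (minus strand, 1 of 2 listed starts, within the gene as annotated) and Fcgr4 at chr1:171018676-171018925 (plus strand):
Fcgr1: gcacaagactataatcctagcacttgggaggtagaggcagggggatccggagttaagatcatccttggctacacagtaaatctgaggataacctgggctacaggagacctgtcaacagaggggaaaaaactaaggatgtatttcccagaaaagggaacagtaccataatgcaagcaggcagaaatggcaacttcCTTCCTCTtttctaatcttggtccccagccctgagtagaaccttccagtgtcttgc
Fcgr3: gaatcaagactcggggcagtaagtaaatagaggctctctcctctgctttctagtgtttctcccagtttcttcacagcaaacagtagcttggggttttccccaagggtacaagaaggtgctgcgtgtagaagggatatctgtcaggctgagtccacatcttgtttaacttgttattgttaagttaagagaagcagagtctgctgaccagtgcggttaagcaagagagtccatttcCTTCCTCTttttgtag
Fcgr4: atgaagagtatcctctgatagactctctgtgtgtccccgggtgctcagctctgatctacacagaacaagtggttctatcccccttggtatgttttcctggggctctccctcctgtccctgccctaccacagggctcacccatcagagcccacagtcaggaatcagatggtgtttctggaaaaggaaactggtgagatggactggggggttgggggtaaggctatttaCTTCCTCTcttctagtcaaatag
CTTCCTCT stood 56 to 49 bases before the start of Fcgr1, 16 to 9 before that of Fcgr3 and 23 to 16 before that of Fcgr4. Counted on both strands, AGAGGAAG was in 3.67% of 32851 promoter windows of this length and its core GAGGAA in 23.3%. Neither was in the windows of Fcgr2b or Fcer1g. The window of Fcgr2b, however, lies within the gene as annotated, and 187 of its 250 bases are in exons, so it is mostly transcribed sequence. The window of the other listed start of Fcgr3 held the core but not all of AGAGGAAG, so that match depends on the start taken. The core of the interferon-stimulated response element was found among the 5 genes in Fcgr4 only (2.98% of all windows). TTGNNCAA, the letters of C/EBP sites, was in none (5.65%). A loose pattern for NF-κB, which fixes only outer letters and leaves the middle ones free, was in all but Fcgr1 (17.6%). A match to this loose pattern does not show the full letters of an NF-κB site. These matches are descriptions of letters, and no factor's binding was measured.

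The libraries held 17684621 and 19163503 counts with Aβ40, against 19524125 and 17212264 with DMSO, and the 5 genes together took 0.191% and 0.174% of the counts with Aβ40, against 0.148% and 0.168% with DMSO. Across genes, the rank correlation was 0.987 between the 2 Aβ40 libraries and 0.978 between the 2 DMSO libraries, while Aβ40 library 2 and DMSO library 1 stood at 0.982, closer than the DMSO pair. The summed level of 14 neutrophil markers, in counts scaled to library size (CPM), was 149500 and 141900 CPM with Aβ40, against 144900 and 103700 CPM with DMSO, so the labelled cell type was well represented in each library. In these bulk samples, fewer cells of a type and less RNA per cell cannot be told apart. CPM were scaled by TMM, and FPKM, which are also divided by gene length, are the authors' deposited values. The comparison of Aβ40 with DMSO asks what the amyloid peptide does to neutrophil transcripts, in a series on neutrophil extracellular traps. Of 13479 genes tested by edgeR's quasi-likelihood test, 17 rose at a Benjamini-Hochberg adjusted p under 0.05 (0.126%) and 0 fell. At an unadjusted p under 0.05 there were 1648 (12.2%), 877 of them higher with Aβ40 (6.51%) and 771 lower (5.72%).

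All 5 genes passed the filter on low counts and had a positive log2 fold change of Aβ40 over DMSO, but 0 of 5 were called after adjustment over all genes by edgeR's quasi-likelihood test, and 0 by DESeq2 or limma-voom, where 0.126% of tested genes were called by edgeR, 0.94% were called higher by DESeq2 and 0.185% by limma-voom. At an unadjusted p under 0.05 there was 1 of the 5, Fcgr3, and 12.2% of tested genes. In 3 of the 5, Fcgr3, Fcgr2b and Fcer1g, the Aβ40 libraries were both above the DMSO libraries, as they were in 23.2% of tested genes, and the groups did not overlap in either direction in 45.1%. The median log2 fold change of the 5 was 0.24, against 0.01 over all tested genes. Aβ40 library 1 had the highest CPM of the 4 libraries for each of the 5 genes.

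FcγRIII, encoded by Fcgr3, is the low-affinity activating receptor that binds IgG1, IgG2a and IgG2b in immune complexes. It had 10087 and 8403 counts with Aβ40, against 5933 and 6277 with DMSO. Scaled to depth, these were 590.0 and 439.5 CPM with Aβ40, against 318.0 and 337.5 CPM with DMSO. Both Aβ40 libraries were above both DMSO libraries, and Aβ40 library 1 was the highest: the Aβ40 libraries differed 1.34-fold from each other and the DMSO libraries 1.06-fold. The means were 514.8 ± 106 CPM with Aβ40 and 327.8 ± 13.8 CPM with DMSO (SD, n = 2 each), a fold of 1.57 with a 95% interval of 1.15 to 2.15. The log2 fold change of 0.65 (SE 0.201) had an unadjusted p = 0.0103 and an adjusted p = 0.324 by edgeR's quasi-likelihood test, and 430th place when genes were ordered by p. The call depended on single libraries: Fcgr3 had adjusted p = 0.0187 without DMSO library 1 (log2 fold change 0.61) and 0.00799 without DMSO library 2 (0.68), fits in which the lone DMSO library is taken to vary like the Aβ40 pair and in which 5.63% and 3.88% of genes were called higher. Without Aβ40 library 1 it had 0.42 and adjusted p = 0.997, and without Aβ40 library 2 it had 0.83 and adjusted p = 0.795, in fits that called 0 genes.

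FcγRIV, encoded by Fcgr4, is an activating receptor of neutrophils and monocytes with intermediate affinity for IgG2a and IgG2b. Its 1346 and 1062 counts with Aβ40 and 1062 and 976 with DMSO were 78.73 and 55.54 CPM with Aβ40, against 56.92 and 52.48 CPM with DMSO. Aβ40 library 1 stood apart, and Aβ40 library 2 lay between the DMSO libraries. The log2 fold change of 0.30 (SE 0.206, 95% interval -0.17 to 0.76) had an adjusted p = 0.596 by edgeR's quasi-likelihood test. Without Aβ40 library 1 it was 0.02, and without Aβ40 library 2 it was 0.51.

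FcγRI, encoded by Fcgr1, is the high-affinity receptor, able to bind monomeric IgG2a. It had 824 and 672 counts with Aβ40, against 683 and 795 with DMSO. On the CPM scale these were 48.2 and 35.15 with Aβ40, against 36.61 and 42.75 with DMSO. The groups overlapped: the Aβ40 libraries were the highest and the lowest of the 4. The log2 fold change was 0.07 (SE 0.212, 95% interval -0.41 to 0.55, adjusted p = 0.922 by edgeR's quasi-likelihood test), and it turned to -0.18 without Aβ40 library 1 and to -0.04 without DMSO library 1.

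FcγRIIb, encoded by Fcgr2b, is the inhibitory receptor. It had 3819 and 3930 counts with Aβ40, against 3305 and 3478 with DMSO, or 223.4 and 205.5 CPM with Aβ40, against 177.2 and 187.0 CPM with DMSO. Both Aβ40 libraries were above both DMSO libraries by a small margin. The log2 fold change was 0.24 (SE 0.168, 95% interval -0.14 to 0.62, adjusted p = 0.601 by edgeR's quasi-likelihood test). An antisense gene, Gm38204, overlaps Fcgr2b on the other strand and had 0 and 0 counts with Aβ40, against 3 and 0 with DMSO.

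The common gamma chain, encoded by Fcer1g, is needed for the surface expression and signalling of the activating receptors. It had 17759 and 19190 counts with Aβ40, against 17933 and 17348 with DMSO, which were 1039 and 1004 CPM with Aβ40, against 961.2 and 932.8 CPM with DMSO. The 4 libraries lay close together, the highest of each group 1.03-fold above the lowest. The log2 fold change of 0.11 (SE 0.182, 95% interval -0.30 to 0.52) had an adjusted p = 0.849 by edgeR's quasi-likelihood test. That interval leaves room for changes of either sign of up to 1.44-fold higher or 0.810-fold with Aβ40.

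The spread between libraries of a group differed among the genes. The higher Aβ40 library was 1.42-fold above the lower for Fcgr4, 1.37-fold for Fcgr1 and 1.34-fold for Fcgr3, but 1.09-fold for Fcgr2b and 1.03-fold for Fcer1g. Among the DMSO libraries the same ratio was 1.17 for Fcgr1 and 1.03 to 1.08 for the others. The 3 activating receptors differed more between the 2 Aβ40 libraries than the inhibitory receptor and the gamma chain did, in values from 1 pair of libraries with no test.

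**Figure D1:**
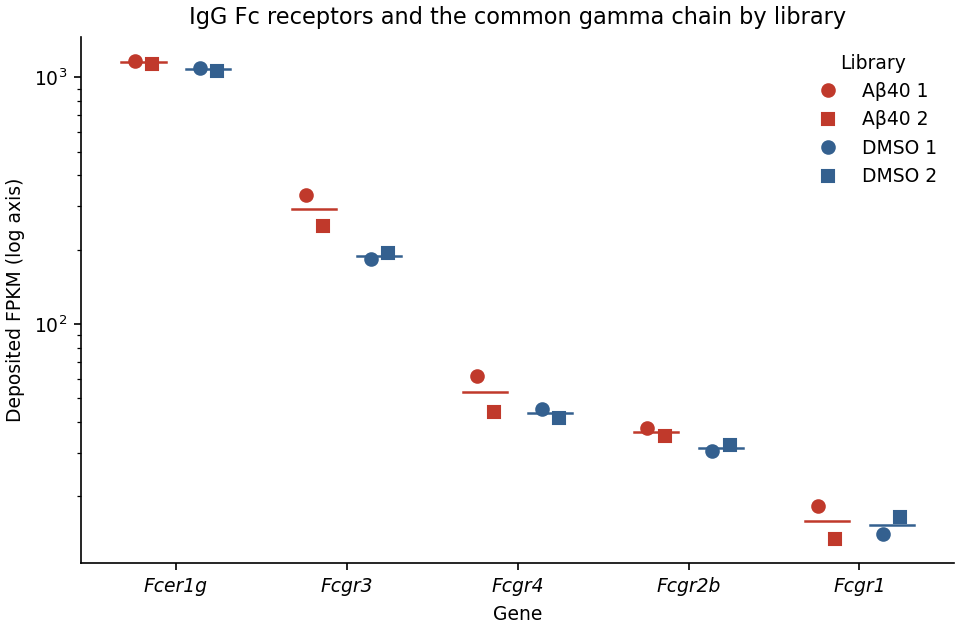
Deposited FPKM (log axis) of the 5 genes in each library, with a bar at the mean of each group (n = 2 each). Fcgr3 is at 334.1 and 250.3 FPKM with Aβ40, both above its 182.4 and 193.5 FPKM with DMSO, while the groups overlap for Fcgr4 and Fcgr1.

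Per unit of gene length, the gamma chain was the most abundant transcript of the 5. Mean FPKM over the 4 libraries was 1115 for Fcer1g, 240.1 for Fcgr3, 48.02 for Fcgr4, 33.91 for Fcgr2b and 15.56 for Fcgr1, and no range over the libraries overlapped that of its neighbour in this order. By mean FPKM, Fcer1g was above 99.7% of all tested genes, Fcgr3 above 98.3%, Fcgr4 above 91.9%, Fcgr2b above 88.7% and Fcgr1 above 78.9%. The group means were 1152 ± 23.3 FPKM with Aβ40 and 1079 ± 23.2 FPKM with DMSO for Fcer1g, and 292.2 ± 59.3 FPKM with Aβ40 and 188.0 ± 7.85 FPKM with DMSO for Fcgr3 (SD, n = 2 each). For Fcgr4 they were 52.68 ± 12.7 FPKM with Aβ40 and 43.36 ± 2.5 FPKM with DMSO. Fcgr2b was at 36.52 ± 2.00 FPKM with Aβ40 and 31.31 ± 1.19 FPKM with DMSO, and Fcgr1 at 15.86 ± 3.45 FPKM with Aβ40 and 15.26 ± 1.66 FPKM with DMSO. The place of Fcgr2b in this order rests on the length used. The deposited length of Fcgr2b, 5790 bases, covers 7 annotated transcripts, while its longest coding transcript has 3544 bases. With the longest coding transcript of each gene, an alternative chosen after seeing the data, Fcgr2b had a mean of 55.4 (49.77 to 61.97 over the libraries) and Fcgr4 of 48.02 (41.59 to 61.63), so these 2 changed places and overlapped, and the other genes kept their order.

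The 4 receptors summed to 452.0 and 342.6 FPKM with Aβ40, against 272.1 and 283.7 FPKM with DMSO, and Fcgr3 was most of this sum. It made up 73.92% and 73.07% of receptor FPKM with Aβ40, against 67.04% and 68.21% with DMSO. Fcgr4 made up 13.63% and 12.76% with Aβ40, against 16.59% and 14.66% with DMSO. The inhibitory receptor Fcgr2b made up 8.39% and 10.25% with Aβ40, against 11.20% and 11.33% with DMSO, and Fcgr1 4.05% and 3.92% with Aβ40, against 5.17% and 5.79% with DMSO. The share of Fcgr3 was higher in both Aβ40 libraries than in both DMSO libraries and the share of each other receptor was lower in both, which follows in part from the shares adding up to a whole.

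The ratio of the 3 activating receptors to Fcgr2b, in FPKM, was 10.92 and 8.759 with Aβ40, against 7.931 and 7.824 with DMSO. Both Aβ40 libraries were above both DMSO libraries, with means of 9.838 ± 1.53 with Aβ40 and 7.877 ± 0.0754 with DMSO (SD, n = 2 each). The log2 difference was 0.31, with a 2-sided exact permutation p = 0.333, the smallest this test can give with 2 libraries against 2, so it cannot reach 0.05. Taken singly, Fcgr3 over Fcgr2b was 8.809 and 7.131 with Aβ40, against 5.987 and 6.019 with DMSO, a log2 difference of 0.40 (exact permutation p = 0.333). Fcgr4 over Fcgr2b was 1.625 and 1.246 with Aβ40, against 1.481 and 1.294 with DMSO, a log2 difference of 0.04 (exact permutation p = 1). Fcgr1 over Fcgr2b was 0.4825 and 0.3824 with Aβ40, against 0.4622 and 0.5112 with DMSO, a log2 difference of -0.18 (exact permutation p = 0.667). Within the activating group, Fcgr3 over Fcgr4 was 5.422 and 5.725 with Aβ40, against 4.042 and 4.653 with DMSO, a log2 difference of 0.36 (exact permutation p = 0.333). The gamma chain over the sum of the 3 activating receptors was 2.822 and 3.693 with Aβ40, against 4.532 and 4.223 with DMSO, a log2 difference of -0.44 (exact permutation p = 0.333). These were 7 ratios of the same 5 genes, they share terms, and the permutation test cannot reach 0.05 for any of them. The level of each ratio to Fcgr2b also depends on the length taken for Fcgr2b, while its log2 difference between groups does not.

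Among the other immunoglobulin Fc receptors and their FCRL relatives, 9 of 14 listed genes passed the filter. Of the 9, 1 rose (Fcrla), where 0.126% of tested genes did, and 0 fell, as over all tested genes. The log2 fold change was positive in 8 of the 9, where it was in 6884 of 13479 tested genes. Its median was 0.63, against 0.01 over all tested genes. In 7 of the 9, both Aβ40 libraries were above both DMSO libraries, against 23.2% of tested genes. Fcrla, an intracellular Fc receptor-like protein of B cells whose gene lies near Fcgr2b on chromosome 1, rose: its log2 fold change was 1.98 (SE 0.191), and it had an adjusted p = 0.0282 by edgeR's quasi-likelihood test. It had 54.57 and 60.57 CPM with Aβ40, against 14.95 and 14.30 CPM with DMSO. Fcrla was not called when either Aβ40 library was left out, fits that called 0 genes. Fcmr, the Fc receptor for IgM, had 13.86 and 17.73 CPM with Aβ40, against 6.003 and 7.582 CPM with DMSO, a log2 fold change of 1.22 (SE 0.262) with an adjusted p = 0.184 by the same test and 0.0441 by DESeq2.

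The chains of the high-affinity IgE receptor of mast cells and basophils, which also signals through Fcer1g, had higher values with Aβ40 that missed the threshold. Fcer1a, the IgE-binding alpha chain, had 25.85 and 17.63 CPM with Aβ40, against 13.29 and 11.78 CPM with DMSO, a log2 fold change of 0.79 (SE 0.251, adjusted p = 0.327 by edgeR's quasi-likelihood test). Ms4a2, the beta chain, had 38.14 and 27.30 CPM with Aβ40, against 22.83 and 21.08 CPM with DMSO, a log2 fold change of 0.57 (SE 0.224, adjusted p = 0.371 by the same test). For both, as for Fcgr3, Fcgr4 and Fcgr1, Aβ40 library 1 was the higher of the Aβ40 pair. Fcgrt, the neonatal Fc receptor that recycles IgG, had 4.036 and 4.289 CPM with Aβ40, against 3.162 and 2.420 CPM with DMSO (log2 fold change 0.58, SE 0.372). Trim21, a cytosolic Fc receptor and ubiquitin ligase, had 77.85 and 60.88 CPM with Aβ40, against 68.02 and 71.19 CPM with DMSO (-0.01, SE 0.185). Fcrl1, of B cells, had 12.46 and 10.62 CPM with Aβ40, against 9.809 and 8.818 CPM with DMSO (0.31, SE 0.244). Fcrl5, also of B cells, and Fcer2a, the low-affinity IgE receptor CD23, were at the edge of detection: Fcrl5 had 0.819 and 1.83 CPM with Aβ40, against 0.375 and 0.269 CPM with DMSO (2.02, SE 0.778), and Fcer2a 1.34 and 1.73 CPM with Aβ40, against 0.536 and 1.45 CPM with DMSO (0.63, SE 0.657). Fcamr, Pigr, Fcrl6, Fcrlb and Fcrls did not pass the filter on low counts, and Fcamr had no count in any library.

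**Figure D2:**
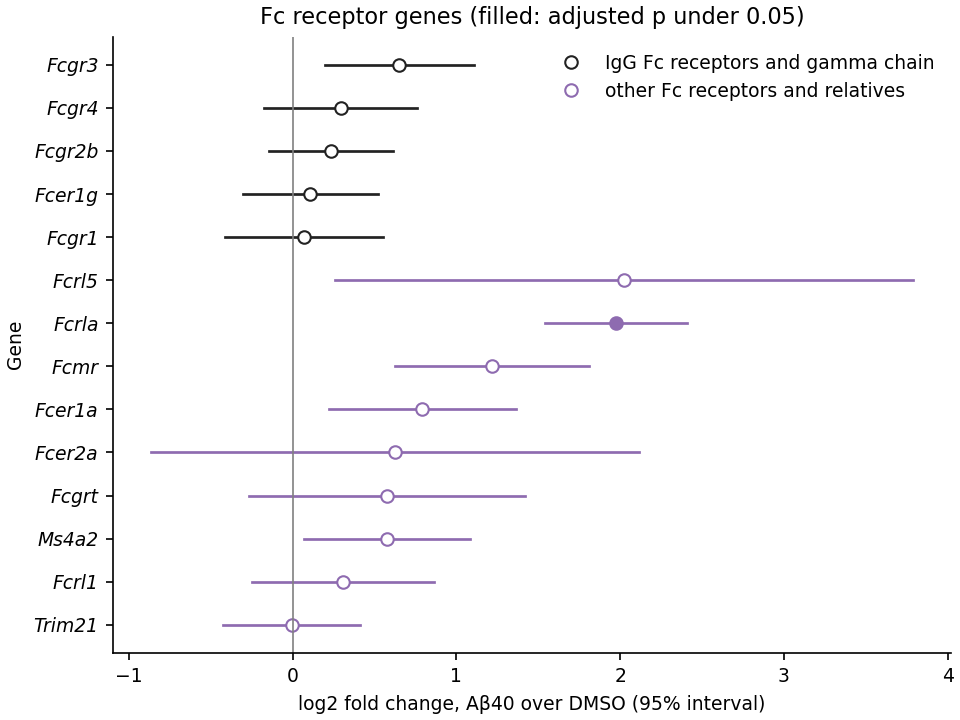
Log2 fold change of Aβ40 over DMSO with its 95% interval for the 5 genes (black) and the 9 tested other Fc receptors and relatives (purple); a filled point marks an adjusted p under 0.05. Fcrla is the one filled point, and among the 5 the interval of Fcgr3 (0.20 to 1.11) lies above 0.

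Other receptors that signal through the gamma chain, and related adaptors, gave 0 calls among 8 tested of 15 listed genes, with 3 positive log2 fold changes and a median of -0.02. DESeq2 and limma-voom also called 0. By edgeR's quasi-likelihood test 2 of the 8 had an unadjusted p under 0.05, as had 12.2% of tested genes. Tyrobp (DAP12), the ITAM adaptor related to the gamma chain that serves other receptors of myeloid cells, had 1209 and 1002 CPM with Aβ40, against 829.1 and 753.6 CPM with DMSO. Its groups did not overlap, and its log2 fold change of 0.48 (SE 0.195) had an adjusted p = 0.38 by the same test, or 0.0347 without DMSO library 1. The gamma-chain-coupled lectins of the same cells had smaller log2 fold changes: Clec4e (Mincle) had 860.3 and 656.6 CPM with Aβ40, against 675.8 and 705.6 CPM with DMSO (0.13, SE 0.201), and Clec4d had 1119 and 999.1 CPM with Aβ40, against 1329 and 971.7 CPM with DMSO (-0.12, SE 0.215). Clec4n (Dectin-2) had a log2 fold change of -0.10 (SE 0.200). Pira2, Hcst and Cd300c2 were between -0.04 and 0, and Cd247, the ITAM chain of T and NK cells, was at 1.75 (SE 0.646) with under 2 CPM in every library.

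Of 35 tested genes of activating signalling below the ITAM, 0 were called, 10 had a positive and 25 a negative log2 fold change, and the median was -0.17, against 0.01 over all tested genes. Both Aβ40 libraries were below both DMSO libraries in 15 of the 35, where 21.9% of tested genes were, and above them in 5, where 23.2% were. By DESeq2 and limma-voom 0 were called. At an unadjusted p under 0.05 edgeR gave 1 higher and 4 lower of the 35 (6.51% and 5.72% of tested genes). Without DMSO library 1 there were 1 higher and 3 lower calls of 35, in a fit that called 5.63% of all genes higher and 3.29% lower. Without DMSO library 2 there were 1 higher and 2 lower, where 3.88% of all genes were called higher and 3.28% lower. Syk, the kinase that docks on the phosphorylated ITAM, had 237.4 and 223.1 CPM with Aβ40, against 241.0 and 293.3 CPM with DMSO (log2 fold change -0.21, SE 0.180, adjusted p = 0.657 by edgeR's quasi-likelihood test). The Src family kinases that phosphorylate the ITAM include Lyn, at a log2 fold change of -0.02 (SE 0.185), and Fgr, at -0.26 (SE 0.200). The lowest were Prkcd, a protein kinase C that activates the NADPH oxidase, at -0.63 (SE 0.210, adjusted p = 0.334), Pik3r2, a regulatory subunit of phosphoinositide 3-kinase, at -0.62 (SE 0.421), and Pik3cd, its leukocyte catalytic subunit, at -0.55 (SE 0.172, adjusted p = 0.325), by the same test. Pik3cd had 111.3 and 131.5 CPM with Aβ40, against 176.7 and 179.7 CPM with DMSO. The highest were the guanine nucleotide exchange factor Vav2 at 0.74 (SE 0.318), Src at 0.68 (SE 0.628) and the adaptor Lat at 0.61 (SE 0.398), each under 10 CPM in every library.

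Of 22 tested genes of inhibitory signalling, 0 were called, 8 had a positive and 14 a negative log2 fold change, and the median was -0.19, against 0.01 over all tested genes. The Aβ40 libraries were both below the DMSO libraries in 10 of these (21.9% of tested genes) and both above in 2 (23.2%). Limma-voom called 0 and DESeq2 called 2, Siglece and Pag1, both lower, as were 0.366% of the genes it tested. At an unadjusted p under 0.05 edgeR gave 3 lower and 0 higher of the 22 (5.72% and 6.51% of tested genes). Without DMSO library 1 there were 4 calls of 22, all lower (3.29% of all genes), and without DMSO library 2 there were 2 higher and 2 lower (3.88% and 3.28%). Inpp5d, whose product SHIP1 carries the signal of FcγRIIb, had 92.01 and 106.4 CPM with Aβ40, against 106.6 and 126.3 CPM with DMSO (-0.23, SE 0.178, adjusted p = 0.629 by edgeR's quasi-likelihood test). Ptpn6, whose product is the phosphatase SHP-1, had 443.5 and 471.8 CPM with Aβ40, against 476.2 and 424.3 CPM with DMSO (0.02, SE 0.178). The lowest was Siglece, an inhibitory sialic acid receptor of neutrophils, with 78.26 and 84.05 CPM with Aβ40, against 152.9 and 129.7 CPM with DMSO (-0.80, SE 0.173, adjusted p = 0.184 by the same test and 0.0122 by DESeq2). Pag1, a membrane adaptor for the inhibitory kinase Csk, had 166.5 and 171.5 CPM with Aβ40, against 249.4 and 283.2 CPM with DMSO (-0.66, SE 0.172, adjusted p = 0.263 by the same test and 0.0419 by DESeq2), and Ptprj, a receptor phosphatase, was at -0.41 (SE 0.198). The highest were the inhibitory lectin Clec12a at 0.28 (SE 0.185), the SHIP2 gene Inppl1 at 0.22 (SE 0.724) and Ceacam1 at 0.22 (SE 0.435). Activating and inhibitory signalling genes thus had medians of the same sign and similar size, and no member of either passed edgeR's test.

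Effectors of the phagocytic cup, actin and the oxidase also gave 0 calls among 40 tested of 41 listed genes, with 13 positive and 27 negative log2 fold changes and a median of -0.13. Both Aβ40 libraries were below both DMSO libraries in 17 of the 40 (21.9% of tested genes) and above in 3 (23.2%). By DESeq2 and limma-voom 0 were called. At an unadjusted p under 0.05 edgeR gave 1 higher and 5 lower of the 40 (6.51% and 5.72% of tested genes). Without DMSO library 1 there were 1 higher and 6 lower calls of 40 (5.63% and 3.29% of all genes), and without DMSO library 2 there were 2 higher and 1 lower (3.88% and 3.28%). Myo1f, a class I myosin of neutrophils, had 386.8 and 418.8 CPM with Aβ40, against 533.6 and 740.3 CPM with DMSO (-0.66, SE 0.210, adjusted p = 0.328 by edgeR's quasi-likelihood test). Cyba, the p22phox subunit of the oxidase, had 574.5 and 731.3 CPM with Aβ40, against 1164 and 839.8 CPM with DMSO (-0.62, SE 0.228, adjusted p = 0.351 by the same test), and Wasf2, which drives actin branching, was at -0.46 (SE 0.168). The highest were the Arp2/3 subunits Arpc3 at 0.54 (SE 0.206) and Arpc2 at 0.22 (SE 0.183), with Nckap1l, a subunit of the WAVE complex, at 0.42 (SE 0.253).

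**Figure D3:**
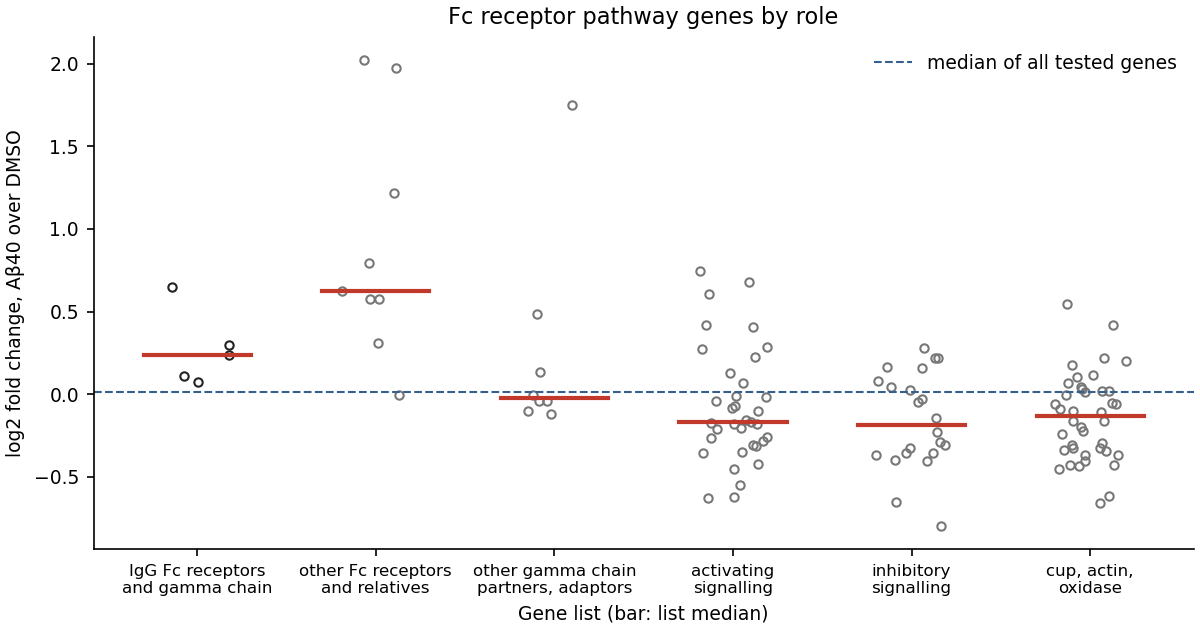
Log2 fold change of Aβ40 over DMSO for every tested gene of 6 lists (points), with the list median (red bar) and the median of all tested genes (dashed line). The medians of the 5 receptor and gamma chain genes (0.24) and of the other Fc receptors (0.63) are above the dashed line, and those of the activating (-0.17), inhibitory (-0.19) and effector (-0.13) lists are below it.

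The cluster of chromosome 1 was read as a whole because 4 of the 5 genes lie in it. Within 150 kb of the span of the 4 genes there were 40 genes, 19 of them tested. Of the 19, 1 rose (Fcrla, whose start lies before that of Fcgr2b), where 0.126% of tested genes did. In the cluster 0 fell, as over all tested genes. In 5 of the 19 both Aβ40 libraries were above both DMSO libraries (23.2% of tested genes) and in 3 below (21.9%). Those above were Fcgr2b, Fcgr3, Fcer1g, Fcrla and Gm2962, a pseudogene that overlaps Fcrla and had 57 and 24 counts with Aβ40, against 19 and 22 with DMSO. Those below were Sdhc, a subunit of succinate dehydrogenase (-0.26, SE 0.178), Usp21, a deubiquitinase (-0.46, SE 0.247), and Nit1 (-0.49, SE 0.225), none of them called. The positive values among the Fc receptor genes of the cluster were therefore not shared by all of their neighbours, and no test of the region was made.

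**Figure D4:**
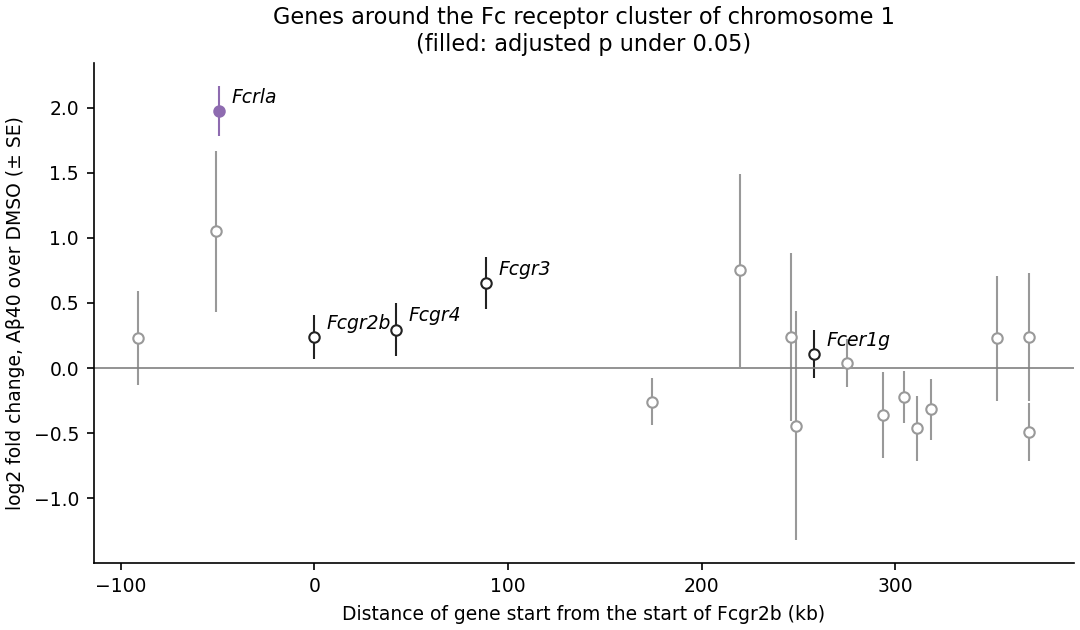
Log2 fold change of Aβ40 over DMSO with its SE for the 19 tested genes around the chromosome 1 cluster, by distance of the gene start from that of Fcgr2b in kb. Fcrla is the one filled point (adjusted p under 0.05), and Fcgr4 (42.4 kb), Fcgr3 (88.4 kb) and Fcer1g (257.8 kb) are at 0.30, 0.65 and 0.11.

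Genes whose pattern over the 4 libraries was most like that of each member were found by the root-mean-square difference in centred log2 CPM, over 8879 protein-coding genes whose mean CPM reached 5. For Fcgr3 they were Kiz (0.0222), Cenpq (0.0252) and Cd55 (0.0253), where the median gene was at 0.398. For Fcgr4 they were Zfp800 (0.0161), Pdcd10 (0.0162) and Vbp1 (0.0209), and for Fcgr1 Dazap1 (0.0107), Afg3l2 (0.0155) and Enpp5 (0.0176). For Fcgr2b they were Med14 (0.0121), Stambpl1 (0.0123) and Tpp2 (0.0135), and for Fcer1g Golt1b (0.0112), Fam107b (0.0126) and Stk4 (0.0132). No member was among the 3 genes most like another member.

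Several lists of markers of other cell types that carry Fc receptors had higher sums with Aβ40. Summed over 20 B cell markers, the level was 2019 and 2104 CPM with Aβ40, against 1218 and 1218 CPM with DMSO. Of these, 6 of 20 tested rose, where 0.126% of all tested genes did. The log2 fold change was above 0 in all 20, where it was in 6884 of 13479 tested genes, and its median was 1.60. This stands beside Fcrla, Fcmr, Fcrl1 and Fcrl5, which B cells express, and beside Fcgr2b, which they also express. The 18 monocyte and macrophage markers, whose cells express all 5 genes, summed to 4229 and 3661 CPM with Aβ40, against 3253 and 3206 CPM with DMSO. Of the 17 tested, 0 were called and 13 were positive, with a median of 0.42. Both Aβ40 libraries were above both DMSO libraries in 8 and below in 3. Most of the summed level in every library was Ly6c2, which had 2615 and 2233 CPM with Aβ40, against 1871 and 1718 CPM with DMSO. The summed level of the other markers of the list overlapped between the groups. Csf1r had 195.7 and 204.4 CPM with Aβ40, against 212.9 and 264.2 CPM with DMSO. Of the monocyte list 1 of 18 markers was at 0 in at least 1 library.

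Eosinophil markers summed to 3684 and 3742 CPM with Aβ40, against 1687 and 1405 CPM with DMSO. Of these 1 of 10 rose, and the share over all tested genes was 0.126%. All 10 had a positive log2 fold change, where 6884 of 13479 tested genes did, and the median was 1.2. In all 10 both Aβ40 libraries were above both DMSO libraries (23.2% of tested genes). T and NK cell markers, of which NK cells express Fcgr3, summed to 137.3 and 145.3 CPM with Aβ40, against 88.82 and 85.87 CPM with DMSO. Of 17 tested 1 rose, all 17 were positive and the median was 1.3. Both Aβ40 libraries were above both DMSO libraries in 15 and below in 0. Dendritic cell markers summed to 965.1 and 1019 CPM with Aβ40, against 631.5 and 617.3 CPM with DMSO. Of 15 tested 1 rose, 13 were positive and 2 negative, and the median was 0.44. Both Aβ40 libraries were above in 10 and below in 1. The basophil and mast cell list, which holds Fcer1a and Ms4a2 themselves, summed to 1047 and 1032 CPM with Aβ40, against 988.0 and 990.1 CPM with DMSO, with 0 of 11 called and a median of 0.12. Erythroid markers were at 3574 and 3713 CPM with Aβ40, against 5097 and 2162 CPM with DMSO, and platelet markers at 28.9 and 31.01 CPM with Aβ40, against 34.52 and 30.11 CPM with DMSO. Of the 14 neutrophil markers 0 were called, 9 had a positive log2 fold change and the median was 0.10. Both Aβ40 libraries were above both DMSO libraries in 2 of them, Ly6g and S100a9 (23.2% of tested genes). They were below in 4, Csf3r, Cxcr2, Mpo and Itgam (21.9%). Ly6g had 400.2 and 319.1 CPM with Aβ40, against 291.7 and 270.8 CPM with DMSO, and Csf3r had 455.0 and 412.1 CPM with Aβ40, against 566.7 and 755.5 CPM with DMSO. Whether these cell types have a part in the values of the Fc receptor genes was not tested.

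**Figure D5:**
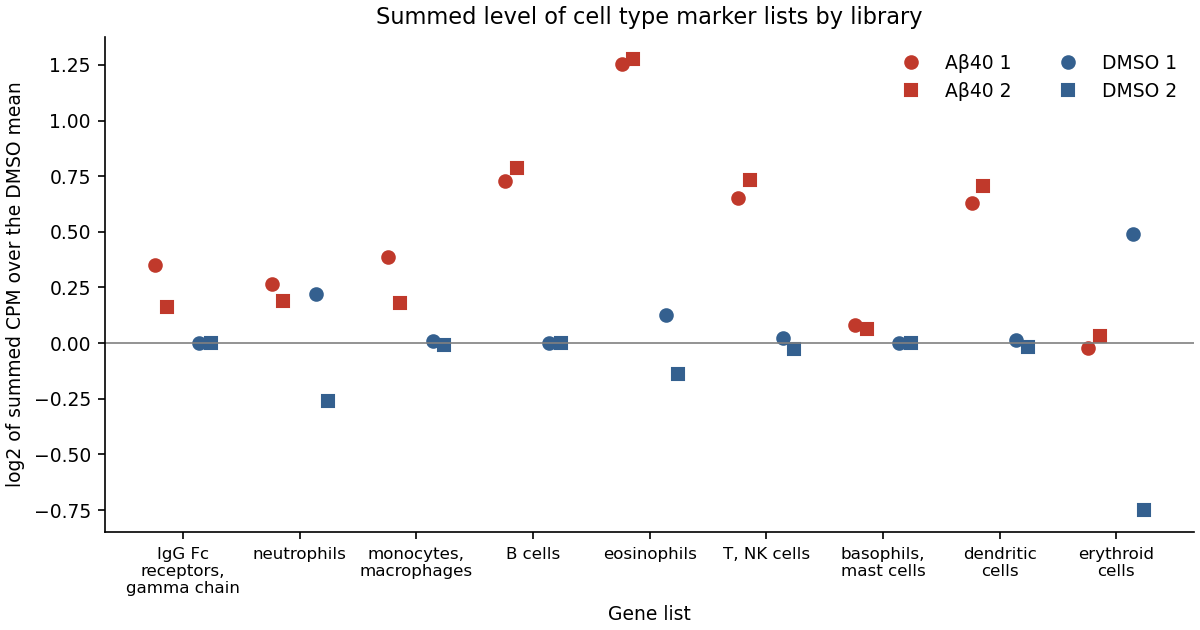
Summed CPM of each marker list in each library, as log2 over the mean of the DMSO libraries (the line at 0), with the 5 receptor and gamma chain genes at the left. The Aβ40 libraries are above both DMSO libraries for the 5 genes and for monocyte, B cell, eosinophil, T and NK cell, basophil and mast cell, and dendritic cell markers. Most of the monocyte sum is Ly6c2, and the other markers of that list overlap between the groups. The DMSO libraries differ from each other most for erythroid markers (5097 and 2162 CPM).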

How the data were processed

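Per the submitters' processing notes, HISAT2 2.0.5, featureCounts 1.5.0-p3 and the build mm10 were used, with no role or order given. The authors deposited whole-number read counts per gene and FPKM for the same 54532 genes. Checked on the values, each deposited FPKM is its count over the gene's length and a library size scaled by median ratios. The sources used here do not give read length, strandedness or annotation release.

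Counts were fitted in R 4.3.3 with edgeR 4.0.16 (filterByExpr, TMM, quasi-likelihood test of Aβ40 against DMSO, 2-sided, all 4 libraries). This left 13479 genes, over which p was adjusted by Benjamini-Hochberg, with calls at an adjusted p under 0.05. The fit had 2 residual and 6.88 prior degrees of freedom and a common biological coefficient of variation of 0.21. One count was worth 0.0523 to 0.0585 CPM. It was tested on simulated data. Ratios of FPKM were compared by exact permutation over libraries. Alternatives were other scalings and filters, protein-coding genes only, DESeq2 1.42.0, limma-voom (limma 3.58.1), limma on log2(FPKM + 1), a replicate block and leaving out each library.

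The members, lists and naming rule were chosen with earlier results of these data known. Named were the 5 genes, every tested gene among the other Fc receptors, in each other pathway list the called members and the 3 highest and 3 lowest, central signalling genes (Syk, Lyn, Fgr, Inpp5d, Ptpn6 and Tyrobp; another is not reported here), genes of the cluster and the 3 genes most like each member. The marker examples, sequences and motifs shown were picked after values were seen. Of 249 distinct gene symbols in the lists, 4 matched no symbol of the count table and were not used. Sequences are from GENCODE M21 transcripts (GRCm38) and RefSeq promoters (GRCm38.p6), in which all 5 symbols were found. Of the gene identifiers, 54409 were in GENCODE M21, and 53462 of these had the same coordinates.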

Additional observations from a re-analysis of the deposited data

How the results depend on the processing

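Of the 5 genes, Fcgr2b, Fcgr3, Fcgr4 and Fcer1g had a positive log2 fold change in each of the 15 alternatives run, with ranges of 0.17 to 0.28, 0.42 to 0.83, 0.02 to 0.51 and 0.06 to 0.13. Fcgr1 ranged from -0.18 to 0.26 and turned negative without Aβ40 library 1 (-0.18) and without DMSO library 1 (-0.04). The count of the 5 called was 1 (Fcgr3) when a DMSO library was left out (log2 fold change 0.61 and 0.68) and with crossed replicate numbers, and 0 in the other alternatives, so leaving out 1 library gave 0 to 1. The log2 difference of the activating to inhibitory ratio was 0.15 to 0.47 when 1 library was left out and 0.34 with Fcgr3 and Fcgr4 only.

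The count of all genes called was 17. It was 255 with no filter on low counts (185 higher and 70 lower), 132 by DESeq2 (95 higher and 37 lower), 0 by limma on log2(FPKM + 1) (1565 at an unadjusted p under 0.05) and 0 to 1276 when 1 library was left out. Both counts of 0 came without an Aβ40 library, with 411 and 614 genes at an unadjusted p under 0.05. In the 5 other pathway lists together, where edgeR called 1 gene, there were 3 calls with no filter, 4 by DESeq2, 0 by limma on log2(FPKM + 1) and 0 to 19 when 1 library was left out. These list counts were added after seeing the data. The scaling alternatives moved the median of all genes by less than 0.1 on the log2 scale. The cause of these changes was not tested.

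The labels give both groups replicate numbers 1 and 2 but do not say that they mark a shared mouse or day, and same-numbered libraries did not deviate together (r = -0.187 over 13479 genes). With the replicate block 27 genes were called (0.2%), 0 of the 5 and 1 of 114 in the pathway lists. The numbers were also crossed, a pairing chosen after seeing the data. That called 721 genes (5.35%), 1 of the 5 (Fcgr3, 0.64) and 8 of 114 in the pathway lists. With 2 libraries in each group, the 95% intervals given are for single genes and are not adjusted for the number of genes tested. A difference whose interval excludes 0 could therefore still go uncalled. The interval of Fcgr3 lay above 0, yet its adjusted p was 0.324 by edgeR's quasi-likelihood test.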
